A study of Mus musculus with 3 samples.

Results

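The mitosis, spindle and kinetochore genes are 54 genes whose products condense chromosomes, build the spindle, attach chromosomes to it, hold anaphase back until attachment is complete and then divide the cell. They were taken by gene symbol, through the accession that the array gives for each probe, and all 54 were found among the 19733 named genes of the array, on 74 of its 39398 probes. Their RNA was read on 3 single-colour arrays from cultures of mouse cavernous endothelial cells, which line the blood spaces of erectile tissue and were isolated from C57BL/6 mice. The labels assign 1 array to cells in high glucose (30 mmol) given siRNA against Ninj1 (200 pmol), 1 to cells in high glucose (30 mmol) and 1 to cells in normal glucose (5 mmol), each kept for 48 h in that glucose. Each array carried RNA pooled from 3 numbered samples of its group, all cells were cultured with serum, heparin and vascular endothelial growth factor A, and no control siRNA is mentioned for the other groups. Ninj1 encodes ninjurin 1, an adhesion protein of the cell surface. The comparisons ask how high glucose alters expression and how the siRNA alters expression in high glucose. With 1 array of pooled RNA per group there is no replicate check and no test, so a gene called higher or lower is so on these arrays.

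A cell enters mitosis when cyclin B and Cdk1 become active together. The kinetochore, a protein assembly on the centromere, then captures spindle microtubules, and the spindle assembly checkpoint restrains the anaphase-promoting complex until every chromosome is attached. Most of these genes are transcribed in late S phase, G2 and mitosis and are silent in resting cells, which is why their RNA is widely read as a mark of dividing cells. In resting cells the DREAM complex represses many of them, and in G2 the B-Myb-MuvB complex and FoxM1 activate them, largely through a promoter element called the cell cycle genes homology region (CHR), often beside CCAAT boxes bound by NF-Y.

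The labels did not match the siRNA's target. Ninj1, read by 1 probe with 1 spot per array, gave a signal of 25539 under the siRNA label, 16291 under high glucose and 20413 under normal glucose, and after scaling the siRNA label had 1.34-fold more of it than the high-glucose label, not less. Signals are printed unscaled here and below, while folds and log2 differences are taken after dividing each array by its 75th percentile, which was 2026 under the siRNA label, 1731 under high glucose and 1781 under normal glucose. The group words in the deposited file names exchange the arrays that the labels call siRNA and high glucose. Slide positions, ranked by coordinate, were 1 for the siRNA label, 3 for high glucose and 2 for normal glucose. Matched to the number that ends each file name, these positions follow neither the labels nor the group words. The numbers were assumed to run in the direction of the coordinate, and the opposite direction was not tried. Groups are therefore named by label throughout, and a direction holds for the array so labelled. The label of the cells was checked as well. Of 18 endothelial markers 14 were well above background on at least 1 array, among them the endothelial cadherin Cdh5 (618 under the siRNA label, 185 under high glucose, 166 under normal glucose) and the receptor Kdr (8278 under the siRNA label, 7298 under high glucose, 7440 under normal glucose). Others of the 14 were dim, such as Pecam1 (72.4 under the siRNA label, 76.5 under high glucose, 61.9 under normal glucose) and Vwf (32.3, 66.2 and 63.3 in that order). Tie1, Emcn, Erg and Sox18 were not well above background on any array, and all 12 fibroblast markers were on at least 1. The fibroblast marker Dcn gave 380630 under the siRNA label, 432729 under high glucose and 435886 under normal glucose. These markers do not settle which cells made up the cultures. The arrays do not say which cells carried the mitosis gene RNA, and in pooled RNA fewer cells of a kind and less RNA per cell cannot be told apart.

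Mitosis genes were higher together on the array labelled siRNA. They were chosen with earlier results of these data known, so the counts describe these genes and are not a test. Against the array labelled high glucose, 52 of 54 were higher by 2-fold or more and 0 were lower by that much. Of all 15625 named genes compared, 6.51% were higher and 8.22% lower by 2-fold or more. The median difference of the 54 genes was 1.72 on the log2 scale, or 3.29-fold, with quartiles at 1.41 and 1.92, against a median of 0.01 over all genes. Differences are of log2 signal after subtraction of each array's 75th percentile, on the brightest probe of a gene. In all 33 mitosis genes were at least 3-fold higher, which 2.62% of all genes were, and 10 were at least 4-fold higher, which 1.19% of all genes were. The 54 differences had an SD of 0.44 against 0.79 over all genes. The exceptions were Pttg1, whose level was nearly equal on every array, and Cenpf, which was too dim for a fold to be measured.

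**Figure D1:**
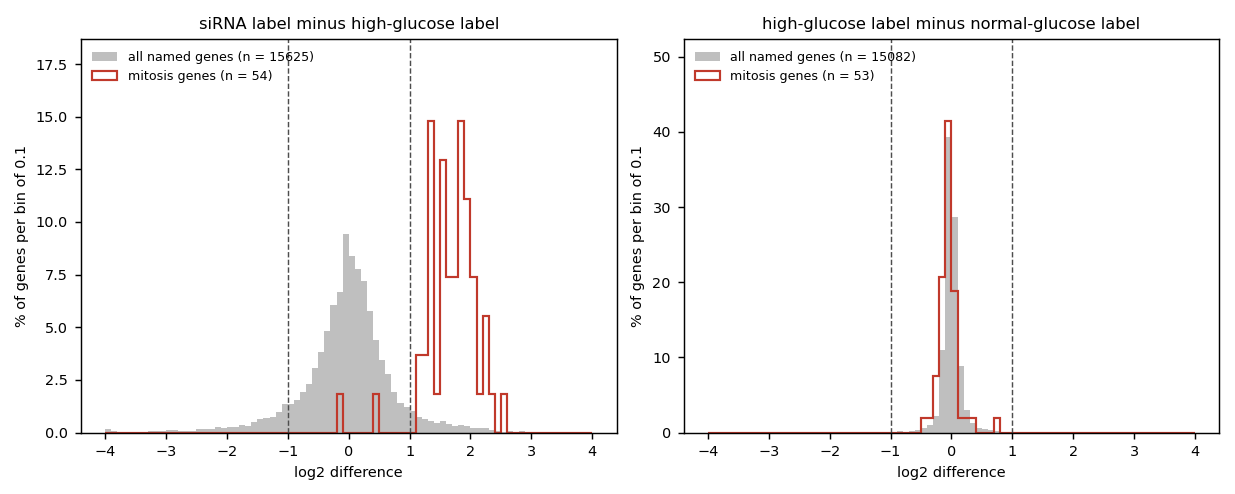
Distribution of log2 differences for all named genes (grey) and for the mitosis genes (red line), as a percentage of genes per bin of 0.1, for the siRNA label minus the high-glucose label (left) and the high-glucose label minus the normal-glucose label (right). Dashed lines mark 2-fold, and values beyond 4 in size are drawn in the outermost bins. On the left 52 of 54 mitosis genes lie to the right of the upper line, and on the right 0 of 53 lie outside the lines.

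The Cdk1 group set the pattern. Ccna2, encoding cyclin A2, which acts in S phase and early mitosis, gave a signal of 5722 under the siRNA label, 1195 under high glucose and 1253 under normal glucose, and was 4.09-fold higher under the siRNA label than under high glucose. Ccnb1, the main cyclin partner of Cdk1 at mitotic entry, gave 7664 under the siRNA label, 1585 under high glucose and 1728 under normal glucose, a 4.13-fold difference between the high-glucose arrays. Cdk1 itself, the kinase that drives entry, gave 5615 under the siRNA label, 1836 under high glucose and 1662 under normal glucose, 2.61-fold higher under the siRNA label. On the brightest probe of each of these the siRNA label stood apart and the other labels lay close together. Another Cdk1 probe gave 541 under the siRNA label, 183 under high glucose and 291 under normal glucose. On that probe the siRNA label was 1.63-fold above normal glucose, and high glucose was 1.54-fold below it. Ccnb2, a second B-type cyclin, was 2.94-fold higher. Cdc25c, the phosphatase that activates Cdk1, had the largest difference of all 54 genes at 6.00-fold, from a dim signal of 229.8 under the siRNA label, 32.7 under high glucose and 40.6 under normal glucose.

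**Figure D2:**
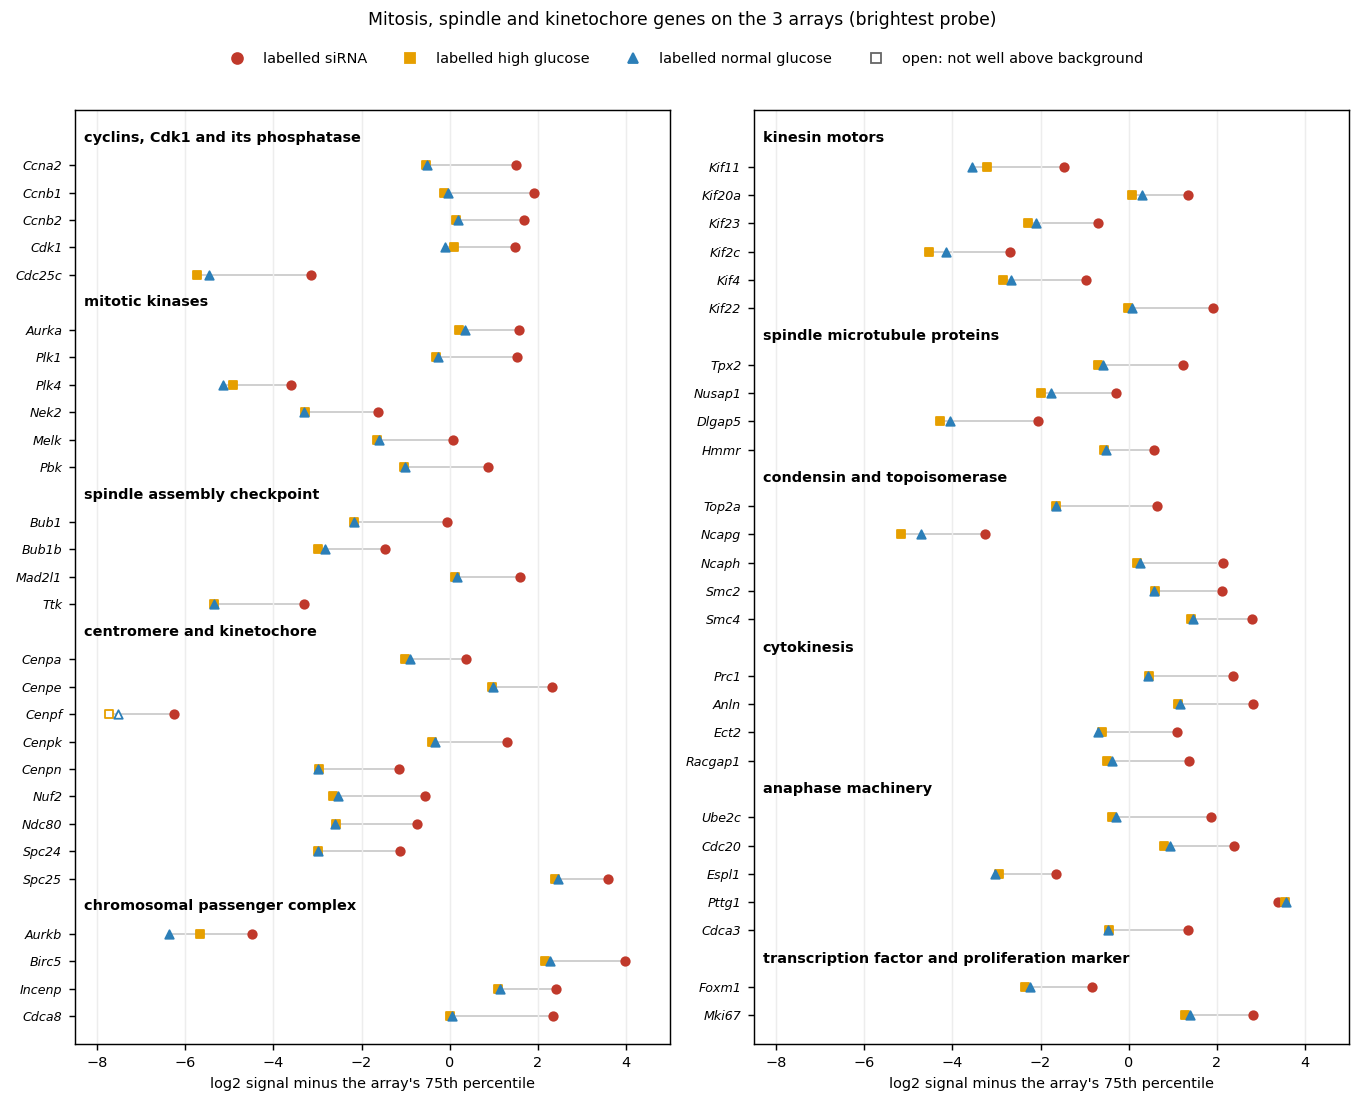
Level of each mitosis gene on the arrays labelled siRNA (red circles), high glucose (orange squares) and normal glucose (blue triangles), as log2 signal minus the array's 75th percentile on the brightest probe, grouped by role; open symbols were not well above background. The circle stands to the right of the other symbols for 53 genes and to the left for Pttg1, and levels of different genes come from different probes and are not comparable.

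Among mitotic kinases, 6 of 6 genes were at least 2-fold higher under the siRNA label than under high glucose, with a group median of 1.68 on the log2 scale. Plk1, polo-like kinase 1, which acts at centrosomes, kinetochores and the midzone, gave 5829.6 under the siRNA label, 1389.6 under high glucose and 1481 under normal glucose, a 3.58-fold difference. Aurka, Aurora A of the spindle poles, was 2.59-fold higher, at 6044 under the siRNA label, 1997 under high glucose and 2249 under normal glucose. Nek2, a kinase that separates centrosomes, was 3.11-fold higher, and the kinase genes Melk and Pbk were 3.31-fold and 3.75-fold higher. Plk4, which starts centriole duplication, was dim: 166 under the siRNA label, 57.2 under high glucose and 50.3 under normal glucose. Its log2 difference of 1.31 became 0.75 with normexp background correction, so its place past 2-fold depends on how background is treated.

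The spindle assembly checkpoint delays anaphase while any kinetochore is unattached. Bub1, a checkpoint kinase at the kinetochore, is the only one of the 54 genes printed 10 times on the array, so its spots show the error within an array. Its spots ran from 1656 to 2294 (median 1959) under the siRNA label, from 361 to 413 (median 386) under high glucose and from 366 to 427 (median 396) under normal glucose. No spot under the siRNA label overlapped those of the other labels, while the spots of the high-glucose and normal-glucose labels overlapped almost fully. The SD of the spots was 0.15 on the log2 scale under the siRNA label, 0.06 under high glucose and 0.07 under normal glucose, against a difference of 2.11 between the siRNA and high-glucose labels. These spots share the RNA and the hybridisation, so they carry no error of cell culture. Ttk, encoding the checkpoint kinase Mps1, was 4.10-fold higher from dim signals of 204 under the siRNA label, 42.5 under high glucose and 43.5 under normal glucose. Bub1b, encoding BubR1 of the mitotic checkpoint complex, was 2.88-fold higher, and Mad2l1, encoding the anaphase inhibitor Mad2, 2.78-fold higher on its brightest probe.

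**Figure D3:**
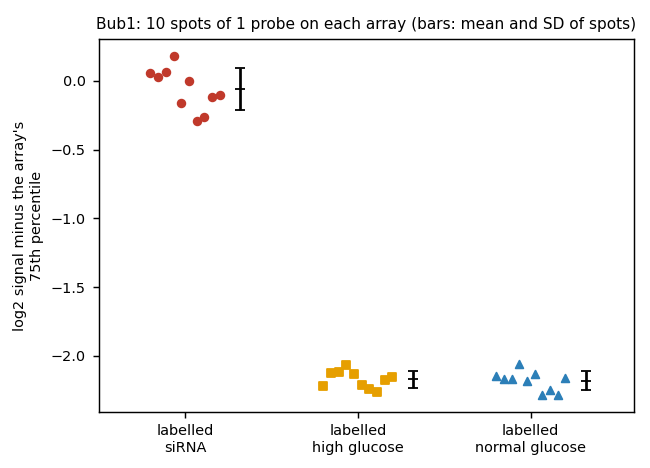
Bub1 signal in each of 10 spots of 1 probe on the arrays labelled siRNA, high glucose and normal glucose, as log2 signal minus the array's 75th percentile, with the mean and the SD of spots. The spots under the siRNA label scatter more (SD 0.15) than those under high glucose (0.06) and normal glucose (0.07), and lie above all of them.

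At the centromere and kinetochore 8 of 9 genes were past 2-fold, with a median of 1.70. Cenpa, the histone H3 variant that marks the centromere, gave 2617 under the siRNA label, 862 under high glucose and 951 under normal glucose, a 2.59-fold difference. The inner subunits Cenpk and Cenpn were 3.24-fold and 3.50-fold higher. All 4 subunits of the Ndc80 complex, the main coupler to microtubules, were past 2-fold: Nuf2 at 4.19-fold, Spc24 at 3.62-fold, Ndc80 at 3.57-fold and Spc25 at 2.31-fold. For Ndc80 they were 1216 under the siRNA label, 291 under high glucose and 292 under normal glucose. For Spc25 they were 24365 under the siRNA label, 9029 under high glucose and 9803 under normal glucose. Cenpe, the kinesin of the outer kinetochore, was 2.58-fold higher. Cenpf, a large protein of the outer kinetochore, gave 26.4 under the siRNA label, 8.15 under high glucose and 9.74 under normal glucose, and was well above background only under the siRNA label, so it is given as at least 1.38-fold higher.

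The chromosomal passenger complex corrects wrong attachments and guides cytokinesis, and 4 of 4 genes were past 2-fold. Cdca8, encoding its subunit borealin, was 5.03-fold higher, at 10239 under the siRNA label, 1739.5 under high glucose and 1850.0 under normal glucose. Birc5, encoding survivin, gave 31896 under the siRNA label, 7711 under high glucose and 8631 under normal glucose, a 3.53-fold difference. Borealin and survivin bind each other on the scaffold protein INCENP, whose gene, Incenp, was 2.47-fold higher. Aurkb, the kinase of the complex, was dim, at 90.7 under the siRNA label, 34.0 under high glucose and 21.4 under normal glucose. Its log2 difference between the siRNA and high-glucose labels was 1.19, and 0.52 with normexp.

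Motors and microtubule proteins of the spindle were all past 2-fold, 6 of 6 kinesins and 4 of 4 others. Kif11, the Eg5 motor that pushes spindle poles apart, was 3.35-fold higher, at 729 under the siRNA label, 186 under high glucose and 151 under normal glucose. Kif22, a chromosome-arm motor, was 3.79-fold higher, at 7625 under the siRNA label, 1719 under high glucose and 1869 under normal glucose. Kif4, which organises the midzone and chromosome arms, and the microtubule depolymerase Kif2c were 3.69-fold and 3.59-fold higher. The cytokinesis motors Kif23 and Kif20a were 2.98-fold and 2.43-fold higher. Tpx2, which activates Aurora A and nucleates spindle microtubules, gave 4782 under the siRNA label, 1072 under high glucose and 1182 under normal glucose, a 3.81-fold difference. Dlgap5, a stabiliser of kinetochore fibres, was 4.67-fold higher, Nusap1, a microtubule bundler, 3.23-fold, and Hmmr, a spindle pole protein that also binds hyaluronan, 2.16-fold.

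Chromosome condensation was represented by 5 genes, all past 2-fold. Top2a, the topoisomerase that disentangles sister chromatids, was 4.90-fold higher, at 3140.2 under the siRNA label, 547 under high glucose and 563 under normal glucose. The condensin I subunits Ncaph and Ncapg were 3.91-fold and 3.74-fold higher, and the core ATPases Smc2 and Smc4, shared by both condensins, 2.84-fold and 2.58-fold. Smc4 gave 13965 under the siRNA label, 4629.8 under high glucose and 4871 under normal glucose. For cytokinesis, the 4 genes lay close together, between 1.70 and 1.92 on the log2 scale. They were Prc1, which bundles midzone microtubules, at 3.79-fold, Racgap1 and Ect2, which switch on RhoA at the cleavage furrow, at 3.65-fold and 3.26-fold, and Anln, an actin-binding scaffold of the furrow, at 3.24-fold. Prc1 gave 10481 under the siRNA label, 2362 under high glucose and 2405 under normal glucose.

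Anaphase genes included the clearest exception. Ube2c, a ubiquitin-conjugating enzyme of the anaphase-promoting complex, gave 7329 under the siRNA label, 1338 under high glucose and 1448 under normal glucose, a 4.68-fold difference. Cdc20, the activator that the checkpoint blocks, gave 10648 under the siRNA label, 3007 under high glucose and 3389.7 under normal glucose, a 3.03-fold difference. Espl1, separase, the protease that cleaves cohesin, was 2.47-fold higher, and its log2 difference of 1.30 became 0.97 with normexp. Cdca3, a trigger of mitotic entry that the complex destroys, was 3.47-fold higher. Pttg1, encoding securin, the inhibitor of separase, gave 20973 under the siRNA label, 19989 under high glucose and 21186 under normal glucose. Its log2 difference was -0.16 between the siRNA and high-glucose labels, and 0.003 on its other, dim probe. After scaling, securin thus had a level within 1.15-fold on all 3 arrays, while the gene of its target, Espl1, did not. Foxm1, the transcription factor that activates many mitotic genes, was 2.86-fold higher, at 1140.0 under the siRNA label, 339.9 under high glucose and 377 under normal glucose, and Mki67, encoding the proliferation marker Ki-67, 2.93-fold higher.

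Of the 54 genes 16 had several probes, which gave 20 further probes. Of these, 18 were well above background on every array, and 14 of the 18 were at least 2-fold higher under the siRNA label than under high glucose. The 4 others belonged to Cdk1, Mad2l1 and Pttg1. For Cdk1, the dimmest of 3 probes gave a log2 difference of 0.82 from signals of 52.4 under the siRNA label, 25.4 under high glucose and 25.9 under normal glucose. For Mad2l1, the other probes disagreed with the brightest: they gave 0.11, from 165 under the siRNA label, 130.2 under high glucose and 153 under normal glucose, and -0.56, from 139 under the siRNA label, 175 under high glucose and 159 under normal glucose. All 3 Mad2l1 probes carry the same transcript accession, and their mean difference was 0.34, which is short of 2-fold. For Ube2c the brightest probe gave 2.23 and the other 2.22, and for Racgap1 they gave 1.87 and 1.88.

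**Figure D4:**
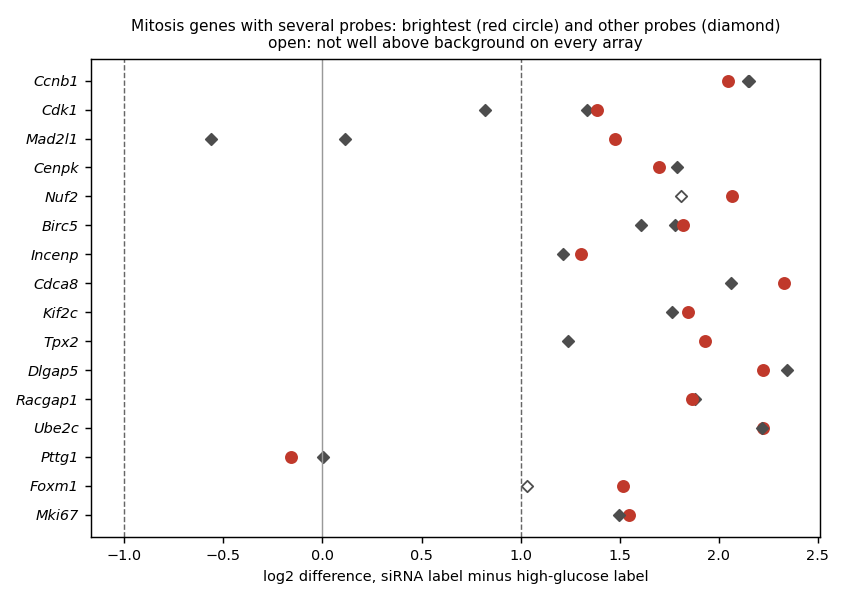
Log2 difference, siRNA label minus high-glucose label, for every probe of the 16 mitosis genes with several probes; red circles are the brightest probe, diamonds the others, open symbols not well above background on every array, and dashed lines mark 2-fold. The circles of 15 genes lie to the right of the upper line, that of Pttg1 lies near 0, and the diamonds of Mad2l1 lie apart from its circle.

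The high-glucose label differed far less from the normal-glucose label. Between these labels 0 of 53 mitosis genes were higher and 0 lower by 2-fold or more, against 0.816% and 0.696% of all 15082 genes compared. By 1.5-fold or more 1 was higher and 0 lower on the brightest probe, against 1.52% and 1.25% of all genes. This holds for the labels only: with arrays assigned by the file-name words 52 genes were higher by 2-fold or more under high than under normal glucose (median 1.68), and by slide position 52 were lower (median -1.68). Cenpf was below background on both arrays and was not compared. The median was -0.05 on the log2 scale, against -0.01 over all genes. Of the mitosis genes 14 lay above 0 and 39 below, against 6695 above and 8387 below of all genes. Within 0.2 of 0 lay 44 of 53 mitosis genes. Spots of a probe repeated on an array give an SD of 0.08 for a difference of 2 spots, which covers spot noise only. Beyond 0.2 the genes were mostly dim. Of 7 genes compared here with a signal under 100 on at least 1 array 6 lay beyond 0.2, and of the other 46 genes 3 did. On the brightest probes Aurkb had the largest difference, 0.71, from signals of 34.0 under high glucose and 21.4 under normal glucose. Ncapg stood at -0.43, from 48.5 under high glucose and 67.5 under normal glucose. Kif11 stood at 0.34, from 186 under high glucose and 151 under normal glucose. Some other probes differed more. That of Dlgap5 stood at -0.97, or 1.96-fold lower, from 53.7 under high glucose and 108 under normal glucose. That of Foxm1 stood at 0.77, but was not well above background under normal glucose.

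Set against normal glucose, the siRNA label showed values of the same size, from a comparison that uses the same siRNA array. Here 52 of 54 genes were higher and 0 lower by 2-fold or more, against 6.35% and 7.95% of all 15581 genes compared, with a median of 1.68. Cdc25c was 4.97-fold higher, Top2a 4.90-fold, Cdca8 4.87-fold and Ube2c 4.45-fold, while Kif20a, the motor of late cytokinesis, was nearest to 2-fold at 2.07-fold. Pttg1 stood at -0.20 and Cenpf at 1.37-fold or more.

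Because these genes were higher together, their promoters were searched for the elements named above. The RefSeq table (build GRCm38.p6) holds windows of 300 bases, from 250 before to 50 after a gene's start, for 43 of the 54 genes. The CHR core was searched as TTTGAA and, in a variant, as TTCGAA, and the NF-Y box as CCAAT, each on both strands. No other form of the core was searched, so a window without these runs is not shown to lack a CHR. Neighbouring matches may share bases (the CCAAT runs at -186 and -183 in Ube2c share 2). A window held TTTGAA for 30 of 43 mitosis genes (69.8%), against 17.9% of all 32851 windows in the table and 15.3% of the 12436 genes with a window that were compared on these arrays. CCAAT was held by 32 of 43 (74.4%), against 37.4% of all windows and 42.2% of those compared genes. Both were held by 27 of 43 (62.8%), against 6.95% of all windows and 6.21% of those genes. The variant TTCGAA was held by 3 of 43 genes (6.98%), against 1.56% of all windows and 2.35% of those genes. Of 132 other cell division genes with a window (lists below), 32.6% held TTTGAA, 55.3% CCAAT, 20.5% both and 9.09% TTCGAA. Each of these shares lay above that of all windows, so the motifs were not particular to the mitosis genes. Of E2F-type sites, better known from S-phase genes, TTTCCCGC was held by 1 of 43 (1.07% of all windows) and the form TTTGGCGC by 0 of 43 (0.514%). Within the mitosis genes the motifs did not separate larger from smaller differences. The 27 genes with both motifs had a median log2 difference of 1.71 (0.46 to 2.33, where 0.46 is the bound of Cenpf). The 8 with neither had a median of 1.71 (-0.16 to 2.07). A match is a run of letters, not a measured site.

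The promoters of the 6 genes with the largest measured differences among those with an entry are shown to let these runs be seen in place, and that of Pttg1 as the gene that differed least, which was chosen after its values were seen. Capitals mark the CHR core, its variant and the NF-Y box on either strand (on the opposite strand the core reads TTCAAA and the box reads ATTGG), and every sequence runs 5′ to 3′ on the strand of its gene.
Cdca8, chr4:124936868-124937167, minus strand: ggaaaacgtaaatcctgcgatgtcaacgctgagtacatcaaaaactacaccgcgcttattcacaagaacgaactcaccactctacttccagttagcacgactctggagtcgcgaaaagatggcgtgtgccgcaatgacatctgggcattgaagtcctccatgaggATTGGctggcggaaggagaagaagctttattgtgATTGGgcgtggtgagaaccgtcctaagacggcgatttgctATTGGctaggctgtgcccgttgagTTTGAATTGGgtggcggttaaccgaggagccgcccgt
Top2a, chr11:99024140-99024439, minus strand: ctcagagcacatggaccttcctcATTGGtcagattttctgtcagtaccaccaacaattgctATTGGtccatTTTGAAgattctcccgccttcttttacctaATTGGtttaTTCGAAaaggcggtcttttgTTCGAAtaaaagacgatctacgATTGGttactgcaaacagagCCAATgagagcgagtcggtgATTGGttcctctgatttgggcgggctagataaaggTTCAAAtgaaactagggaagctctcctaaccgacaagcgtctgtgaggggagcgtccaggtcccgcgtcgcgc
Ube2c, chr2:164769679-164769978, plus strand: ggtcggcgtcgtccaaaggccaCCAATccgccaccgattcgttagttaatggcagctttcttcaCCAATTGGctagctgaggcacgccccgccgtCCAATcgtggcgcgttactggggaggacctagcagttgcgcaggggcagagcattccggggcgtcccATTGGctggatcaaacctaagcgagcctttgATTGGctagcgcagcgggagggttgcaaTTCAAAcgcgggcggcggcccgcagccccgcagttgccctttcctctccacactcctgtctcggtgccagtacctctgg
Bub1, chr2:127831810-127832109, minus strand: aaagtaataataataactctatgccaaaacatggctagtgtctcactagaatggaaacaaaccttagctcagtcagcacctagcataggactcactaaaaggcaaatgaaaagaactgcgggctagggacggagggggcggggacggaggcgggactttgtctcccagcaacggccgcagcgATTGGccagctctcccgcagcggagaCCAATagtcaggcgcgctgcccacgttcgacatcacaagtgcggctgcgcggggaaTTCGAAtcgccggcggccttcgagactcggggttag
Nuf2, chr1:169531415-169531714, minus strand: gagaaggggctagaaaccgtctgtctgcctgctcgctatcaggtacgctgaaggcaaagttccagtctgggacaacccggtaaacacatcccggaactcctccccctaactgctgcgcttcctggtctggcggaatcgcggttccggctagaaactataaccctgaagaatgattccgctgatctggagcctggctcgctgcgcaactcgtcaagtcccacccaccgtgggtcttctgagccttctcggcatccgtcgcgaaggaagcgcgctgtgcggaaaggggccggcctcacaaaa
Ccnb1, chr13:100786437-100786736, minus strand: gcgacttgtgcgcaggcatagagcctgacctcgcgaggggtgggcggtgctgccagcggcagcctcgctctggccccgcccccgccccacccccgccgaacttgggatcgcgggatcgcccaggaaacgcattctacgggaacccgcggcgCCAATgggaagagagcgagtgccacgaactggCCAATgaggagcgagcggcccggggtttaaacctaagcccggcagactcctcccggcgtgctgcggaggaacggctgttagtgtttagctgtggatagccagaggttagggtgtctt
Pttg1, chr11:43425932-43426231, minus strand: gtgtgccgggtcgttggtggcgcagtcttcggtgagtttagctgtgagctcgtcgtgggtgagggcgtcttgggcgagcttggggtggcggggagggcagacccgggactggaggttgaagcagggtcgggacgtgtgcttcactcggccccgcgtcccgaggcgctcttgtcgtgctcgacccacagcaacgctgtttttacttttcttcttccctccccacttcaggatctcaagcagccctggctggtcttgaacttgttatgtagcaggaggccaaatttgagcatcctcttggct
Positions are those of a motif's first base, negative before the gene's start. In Ube2c the opposite-strand TTTGAA is at -29, after CCAAT runs at -88 and -57. In Top2a TTTGAA is at -179 and -23, with 6 CCAAT runs in the window. Cdca8 has TTTGAA at 14, inside the transcript, and Bub1 has TTCGAA at 15. Ccnb1 has CCAAT at -99 and -67 and no TTTGAA in this window. Nuf2, 4.19-fold higher, and Pttg1, nearly level, hold none of these runs in this window.

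Other cell division genes were read from 13 lists chosen by function, with none of the 54 genes in them. The lists were chosen with earlier results of these data known. Of 159 such genes compared, 62 were higher and 2 lower by 2-fold or more under the siRNA label than under high glucose (6.51% and 8.22% of all genes), with a median of 0.74. Lists differed in how many of their genes were past 2-fold. Of 25 other centromere and kinetochore genes 18 were past 2-fold (median 1.56). They included Oip5, which takes part in loading the centromeric histone, at 4.91-fold, Knl1, the platform for Bub1, at 4.64-fold and Cenpm at 4.10-fold. Of 10 other checkpoint genes 6 were past 2-fold (median 1.41), led by Kntc1, encoding the Rod protein that brings Mad1 to kinetochores, at 5.49-fold, Trip13, which remodels Mad2, at 4.62-fold, and Sgo2a, a protector of centromeric cohesin, at 3.83-fold. Kntc1 gave 2779.6 under the siRNA label, 432 under high glucose and 429 under normal glucose.

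Of 5 other mitotic kinesins 4 were past 2-fold (median 1.64), with Kif20b at 3.82-fold, Kif15 at 3.33-fold and Kif18b at 3.11-fold. Condensin was past 2-fold in 3 of 4 further subunits, Ncapg2 at 2.70-fold, Ncapd2 at 2.62-fold and Ncapd3 at 2.02-fold. Mitotic entry and exit regulators were past 2-fold in 7 of 14 (median 1.04), with Ccnf, encoding cyclin F, at 3.62-fold, Fbxo5, encoding the anaphase-promoting complex inhibitor Emi1, at 3.46-fold and the Cdk1-inhibiting kinase Pkmyt1 at 3.28-fold. Spindle and microtubule genes were past 2-fold in 8 of 21 (median 0.83), led by Tacc3 at 4.44-fold, Haus6 at 3.37-fold and Spag5 at 3.28-fold. Cytokinesis genes were past 2-fold in 4 of 12 (median 0.72), with Depdc1b at 5.27-fold, Shcbp1 at 3.23-fold and Depdc1a at 2.79-fold.

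The other lists had medians nearer to 0. Of all genes 6.51% were higher and 8.22% lower by 2-fold or more. A count of 0 or 1 in these short lists is near those shares. The anaphase-promoting complex had 0 of 14 genes past 2-fold in either direction (median 0.05). Its largest differences were those of the catalytic subunit Anapc11 at 1.67-fold, the scaffold Anapc1 at 1.62-fold and the chain-elongating enzyme Ube2s at 1.51-fold. Anapc11 gave 34567 under the siRNA label, 17634 under high glucose and 19122 under normal glucose. Cohesin and its cofactors had 2 of 13 genes past 2-fold (median 0.30): Esco2, the acetyltransferase that establishes cohesion in S phase, at 4.12-fold and Cdca5, encoding sororin, at 3.09-fold, followed by Wapl at 1.91-fold. Centriole and centrosome genes had 1 of 10 past 2-fold (median 0.57), the duplication factor Stil at 3.34-fold, with Cdk5rap2 at 1.99-fold and Sass6 at 1.91-fold.

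Regulators of the mitotic genes were read in the same way. Of 15 genes of the DREAM and B-Myb group 6 were past 2-fold (median 0.73). Mybl2, encoding B-Myb, gave 5324 under the siRNA label, 945 under high glucose and 991 under normal glucose, a 4.81-fold difference. The repressors E2f8 and E2f7, which shut down S-phase genes later in the cycle, were 4.31-fold and 4.01-fold higher. G1 cyclins and their kinases were past 2-fold in 3 of 8: Ccne2 at 4.77-fold from dim signals, Cdk2 at 2.52-fold and Ccne1 at 2.45-fold. Of 8 genes in the list of CDK inhibitors, 0 were higher and 2 lower by 2-fold or more (median -0.15). The list includes Rb1 (log2 -0.08), which encodes the retinoblastoma protein and not a CDK inhibitor. Cdkn1c, encoding p57, gave 1245 under the siRNA label, 4227 under high glucose and 3824 under normal glucose, a 3.98-fold lower level under the siRNA label. Cdkn2b, encoding p15, was 2.44-fold lower, and Cdkn1b, encoding p27, 1.29-fold lower.

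**Figure D5:**
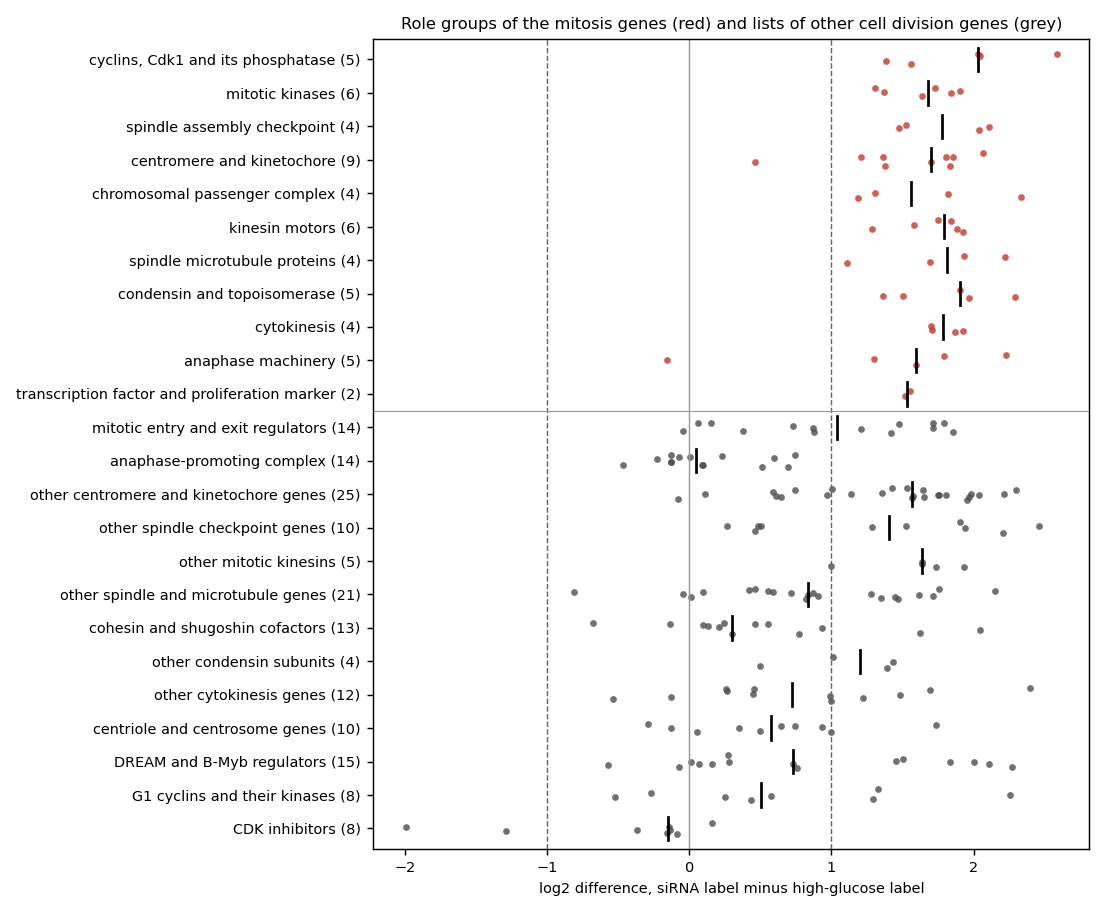
Log2 difference, siRNA label minus high-glucose label, of each gene in the 11 role groups of the mitosis genes (red) and in the 13 lists of other cell division genes (grey), with the number of genes in brackets; vertical ticks are medians, dashed lines mark 2-fold, and Cenpf is drawn at its bound of 0.46. Medians run from 1.53 to 2.03 in the role groups and from -0.15 to 1.64 in the other lists. Genes and lists were chosen with earlier results known, so this contrast is not a test.

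Cell type markers differed between the same arrays, on which 6.51% of all genes were higher and 8.22% lower by 2-fold or more. A count of 1 in these short lists is near that share. Summed signals of the markers are given in multiples of each array's 75th percentile and are carried by the brightest genes. The median log2 difference between the siRNA and high-glucose labels therefore stands beside each sum. Among 12 fibroblast markers 6 were lower and 0 higher by 2-fold or more (median -1.08), with a sum of 480.7 under the siRNA label, 652 under high glucose and 644 under normal glucose. Of 9 smooth muscle and pericyte markers compared (12 listed) 4 were lower and 1 higher by that margin (median -0.46). Their sum was 29.5 under the siRNA label, 56.5 under high glucose and 55.6 under normal glucose. Myh11, Myocd and Lmod1 of this list were not well above background on any array. Of 14 endothelial markers compared 2 were higher and 4 lower (median -0.56), with a sum of 8.84 under the siRNA label, 8.39 under high glucose and 8.29 under normal glucose. Of 9 macrophage markers 1 was higher and 4 were lower (median -0.87), with a sum of 21.1 under the siRNA label, 20.4 under high glucose and 21.2 under normal glucose. Epithelial markers (5 compared, 2 higher, 0 lower, median 0.52) summed to 2.05 under the siRNA label, 2.21 under high glucose and 2.26 under normal glucose. Epcam, Cdh1, Krt8 and Cldn4 of this list were not well above background on any array. Schwann cell and neuron markers (1 higher, 1 lower, median -0.36) summed to 8.79 under the siRNA label, 10.9 under high glucose and 11.1 under normal glucose. In the endothelial, macrophage and epithelial lists the change in the sum and the median differ in sign. The part of these differences in the mitosis gene result was not tested.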

How the data were processed

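Cy3-labelled cRNA from total RNA was hybridised to 3 arrays of 1 slide. Background-subtracted intensity per spot came from Feature Extraction 11.0.1.1 by Agilent, per the file headers. The authors also deposited a series table of linear intensity, whose columns equalled the processed signal of their arrays within 0.1% for 100% of 38999 single-spot probes (column medians 129 for the siRNA label, 118 for high glucose and 118 for normal glucose). How that table combines repeated spots is not given in the sources used here.

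Flagged outlier spots (107 under the siRNA label, 147 under high glucose, 109 under normal glucose) were left out, log2 signals were averaged per probe, and each array's 75th percentile was subtracted. No spot was saturated, and 67.1% to 70.6% of probes were well above background. Probes were named through their accession in the RefSeq table of GRCm38.p6 (26030 of 39398 probes, 66.1%), so members follow that table. Each gene was read from its brightest usable probe. A probe dim on 1 array of a pair gives a bound: the bright value over that array's dim value, or over its lowest detected value if higher. Non-members were named by a rule: up to 3 per list with the largest measured difference. DREAM subunits, other E2F genes and Rb1 were named besides. The members and lists were chosen with earlier results of these data known. The number of arrays, 1 per group, limits the precision. Steps were tested on simulated data. Quantile, cyclic loess, median scaling and normexp (limma 3.58.1, offset 50, on median signals), the series table, other probe filters and other array assignments were tried.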

Additional observations from a re-analysis of the deposited data

How the results depend on the processing

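Counts of members past 2-fold and their medians were recomputed under 12 alternatives. Quantile normalization, cyclic loess, median scaling, the series table, both other filters on dim probes and the mean over probes left between 50 and 53 of the members at least 2-fold higher under the siRNA label, against high glucose or normal glucose. Normexp background correction left 49 in each comparison and lowered the median to 1.55 against high glucose and 1.51 against normal glucose. Plk4, Aurkb and Espl1 (normexp) and Mad2l1 (mean over probes) were no longer past 2-fold against high glucose, and Plk4, Aurkb and Ncapg (normexp) and Mad2l1 and Nuf2 (mean over probes) against normal glucose. At 3-fold 33 members were higher under the siRNA label than under high glucose and 30 than under normal glucose. At 1.5-fold 1 member, Aurkb, was higher under high glucose than under normal glucose on the brightest probe. Over all genes, normexp gave 619 higher and 783 lower in place of 1017 and 1285 (siRNA against high glucose), 605 and 769 in place of 990 and 1239 (siRNA against normal glucose), and 43 and 33 in place of 123 and 105 (high against normal glucose). For high against normal glucose the filter on every array gave 35 and 26, and no filter 433 and 329. For the lists of other division genes, scaling, normexp, the series table and the mean over probes (chosen after seeing the data; array assignments were not among them) gave 234 values, of which 222 moved by less than the spot noise or 1.5 times and 0 reversed.

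The result rests on which array carries which label. With the high-glucose arrays exchanged, as the file-name words have it, 0 members were higher and 52 lower under siRNA than under high glucose (median -1.72), 0 were higher under siRNA than under normal glucose (median -0.050), and 52 were higher under high than under normal glucose (median 1.68). With arrays assigned by slide position, 0 members were higher under siRNA than under high glucose (median -0.050), 0 were higher and 52 lower under siRNA than under normal glucose (median -1.72), and 52 were lower under high than under normal glucose (median -1.68). The assignment by slide position rests on the assumed direction of numbering. No paired analysis was possible because each group has 1 array, and for the same reason no replicate could be left out. Dim probes, with a signal under 100 on at least 1 array, limit Cenpf, Aurkb, Plk4, Ncapg, Cdc25c, Ttk, Kif2c and Dlgap5.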
